A study of Sus scrofa with 4 samples.

Results

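The cells described here are the hypoblast cells of the day 12 pig embryo that held the most messenger RNA of FETUB, the gene of fetuin B. They were selected on their APOA1, PLET1 and FETUB counts in 1 library, the day 12 embryo, among cells with at least 2000 UMIs (molecules counted once by a barcode), at least 500 genes and at most 20% of UMIs from the 13 mitochondrial protein genes. A hypoblast gate then asked for APOA1, the abundant apolipoprotein A1 gene of yolk sac endoderm, at 5000 CPM or more (counts per 1000000 UMIs, here of the cell), and for the trophectoderm gene PLET1 under 2000 CPM. Of 6169 cells past the filters, 2702 (43.8%) lay in this gate, and 692 of these held 5 or more FETUB UMIs. These 692 FETUB-high cells were 25.6% of the gate (24.0 to 27.3% by the exact Clopper-Pearson interval) and 11.2% of the library (10.4 to 12.0%). The other 2010 cells of the gate, with under 5 FETUB UMIs, are called FETUB-low and serve for comparison.

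The study took embryos and endometrium of pregnant pigs (Sus scrofa) on days 9 and 12 of pregnancy, with 1 library for each tissue and day and 24983 cells past these filters in all. The embryo cells were freed with papain and dispase and the endometrial cells with collagenases and dispase. No treatment or genotype sets the groups apart, and the labels used here do not say how many animals or embryos a library pools. With 1 library there is no replicate check of any value. Intervals are 95% and hold counting error only, and no difference was tested.

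The hypoblast, or primitive endoderm, is the inner layer of the blastocyst that lines the blastocoel and becomes the endoderm of the yolk sac. Before the liver forms, that endoderm makes many proteins that later come from hepatocytes: apolipoproteins, carriers of retinol, thyroid hormone and iron, and protease inhibitors. Fetuin B is such a secreted protein. It belongs to the cystatin superfamily and inhibits proteases of the astacin family, among them ovastacin, which hardens the zona pellucida. FETUB (ENSSSCG00000011800) lies on chromosome 13 at 124480456 to 124494197 in Sscrofa11.1, between its relative AHSG, the gene of fetuin A (124426313 to 124438848), and HRG and KNG1, which end at 124557384.

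The values that chose the cells are given as a description. FETUB-high cells held 5 to 170 FETUB UMIs, with a median of 11, and a median FETUB level of 1002 CPM per cell. The level of a group of cells, from their summed counts, was 1454 CPM in FETUB-high cells and 108 CPM in FETUB-low cells. The threshold fell on a slope and not in a gap: 158 cells of the gate had 4 UMIs and 85 had 5, and 815 (30.2%) had 0. Just outside the threshold, the 333 cells with 3 or 4 FETUB UMIs had RBP4 at 999 CPM and MT1A at 1799.6 CPM. Just inside it, the 149 cells with 5 or 6 UMIs had RBP4 at 1087 CPM and MT1A at 2372 CPM. APOA1 was at 23650.4 CPM in FETUB-high and 20089.7 CPM in FETUB-low cells, and PLET1 at 574 and 572 CPM.

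**Figure D1:**
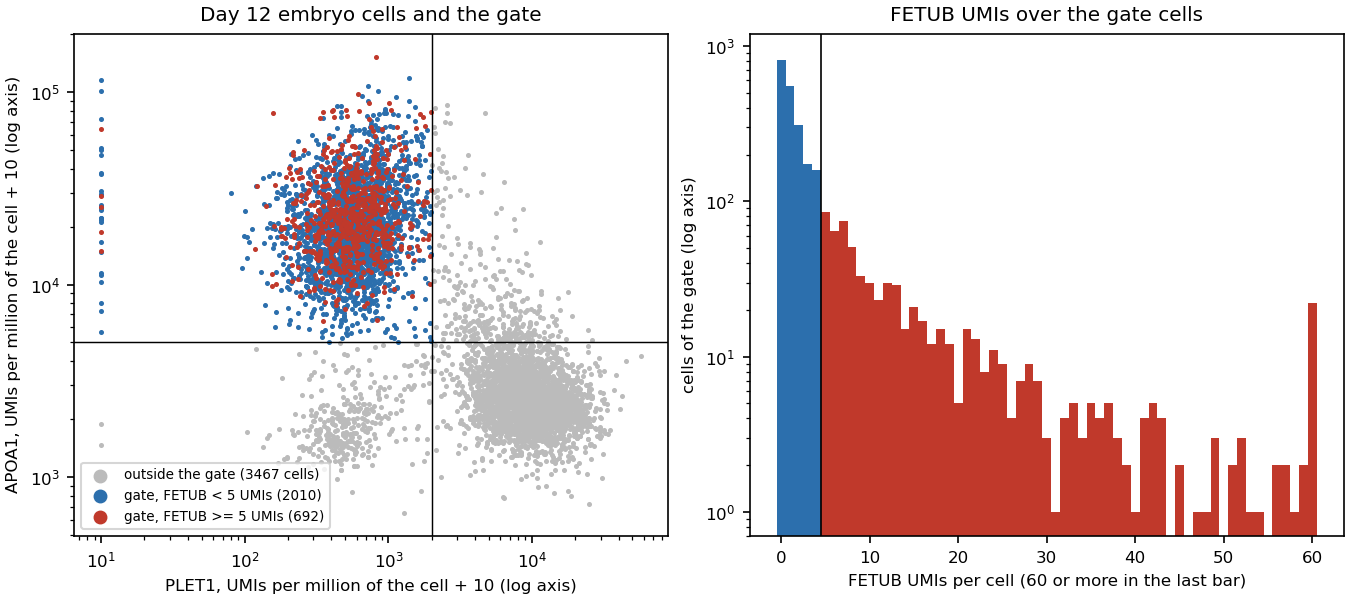
Left, APOA1 against PLET1 in each day 12 embryo cell past the filters (CPM of the cell plus 10, log axes), with lines at the gate limits of 5000 and 2000 CPM. Red points, the 692 FETUB-high cells, spread over the same area as the 2010 blue FETUB-low cells. Right, FETUB UMIs per gate cell (log count axis), which fall without a gap across the threshold of 5.

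Most hypoblast markers were detected in FETUB-high cells. All 14 hypoblast markers fixed for this purpose were in the files, and 13 stood at 5 CPM or more in FETUB-high cells, CUBN being the exception. APOA1 is among the 14 and was set by the rule. The level of 5 CPM separates cell types poorly: 12 of the 14 reached it in FETUB-low cells and 9 in PLET1-high cells, described below. Regulators of the layer were at like levels in both groups: GATA6 at 91.7 and 88.8 CPM, SOX17 at 213 and 213 CPM, and the receptor gene PDGFRA at 123 and 127 CPM in FETUB-high and FETUB-low cells. Of 11 mesoderm markers only PITX1 reached 5 CPM in FETUB-high cells, and TBXT was at 0. Of 8 markers of blood and endometrium, PTPRC, HBB, HBE1, CDH5, CD3E and PAEP were at 0 in FETUB-high cells, and PECAM1 reached 313 CPM. Of the 5 epiblast markers matched, DPPA5 and DNMT3B reached 5 CPM, and PRDM14 was at 0.

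Hypoblast transcripts were also counted in cells outside the gate. The 2806 cells high in PLET1 (2000 CPM or more) and low in APOA1, which hold trophectoderm, had a FETUB UMI in 44.8% of cells at a median depth of 9354.5 UMIs, against 59.5% of FETUB-low cells at 10732.5 UMIs. Their FETUB level was 64.0 CPM, which is 13.5% of the level of the whole gate. Some other genes of the gate stood in those cells at like fractions of their gate level: RBP4 at 10.3%, MT1A at 9.33%, APOC3 at 9.61% and TTR at 9.42%. APOA1 was at 11.4%, but these cells were chosen for low APOA1. Fractions differed between gene lists. Basement membrane genes summed to 806 CPM in those cells and 8281 CPM in FETUB-low cells, hypoblast and endoderm regulators to 323 and 1376 CPM, and endocytic uptake genes to 970 and 1165 CPM. The threshold of 5 UMIs was reached by 3 of the 2806 cells (0.107%, 0.0221 to 0.312%) and by 25 of the 661 day 12 cells of neither class (3.78%). In the other direction the sum of 13 trophectoderm markers was 7092 CPM in FETUB-high, 6583 in FETUB-low and 30771.8 in PLET1-high cells, with 11 of 13 at 5 CPM or more in each gate group. PLET1 is among the 13 and was set by the choice of these cells. Another list, of 17 matched trophectoderm genes without PLET1, summed to 7078, 6495 and 20745.6 CPM. HAND1, a trophectoderm regulator, was at 90.3 and 87.8 CPM in FETUB-high and FETUB-low cells, against 1744 CPM in PLET1-high cells. RNA in empty droplets was not measured here, and the part of free RNA in the results was not tested.

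Depth and quality were close between the groups. FETUB-high cells had a median of 11164 UMIs, 2602 genes and 3.43% mitochondrial UMIs, and FETUB-low cells 10732.5 UMIs, 2546.5 genes and 3.24%. Since the rule counts UMIs of FETUB, deeper cells pass it more easily. After thinning every cell to 2000 UMIs, the median was 849 genes in FETUB-high and 857 genes in FETUB-low cells.

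Few genes separated FETUB-high from FETUB-low cells, and those with the highest ratios included several secreted plasma proteins. Of 2270 genes at 50 CPM or more in either group, 17 (0.749%) were at least 2-fold higher in FETUB-high cells and 1 (0.0441%), ANXA1, was at least 2-fold lower. The median log2 ratio over the 2270 genes was -0.04, and 37.3% had a positive ratio. Of the 17, 4 carry no symbol in the sources used here, among them ENSSSCG00000005488 at 105 and 6.56 CPM. The 13 with a symbol were TTR, FGB, AHSG, SOD3, SERPINA1, APOC3, NADK2, AK4, SELENOP, TF, ASS1, RBP4 and MT1A. Of these, APOC3, SELENOP, TF, RBP4 and MT1A reached 50 CPM in both groups. The others, like ENSSSCG00000005488, reached it in FETUB-high cells alone, so the level filter fixed their direction. FETUB itself, APOA1 and PLET1 were left out of these counts because they set the gate. A call needs a log2 ratio of 1 with 1 CPM added to both levels.

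**Figure D2:**
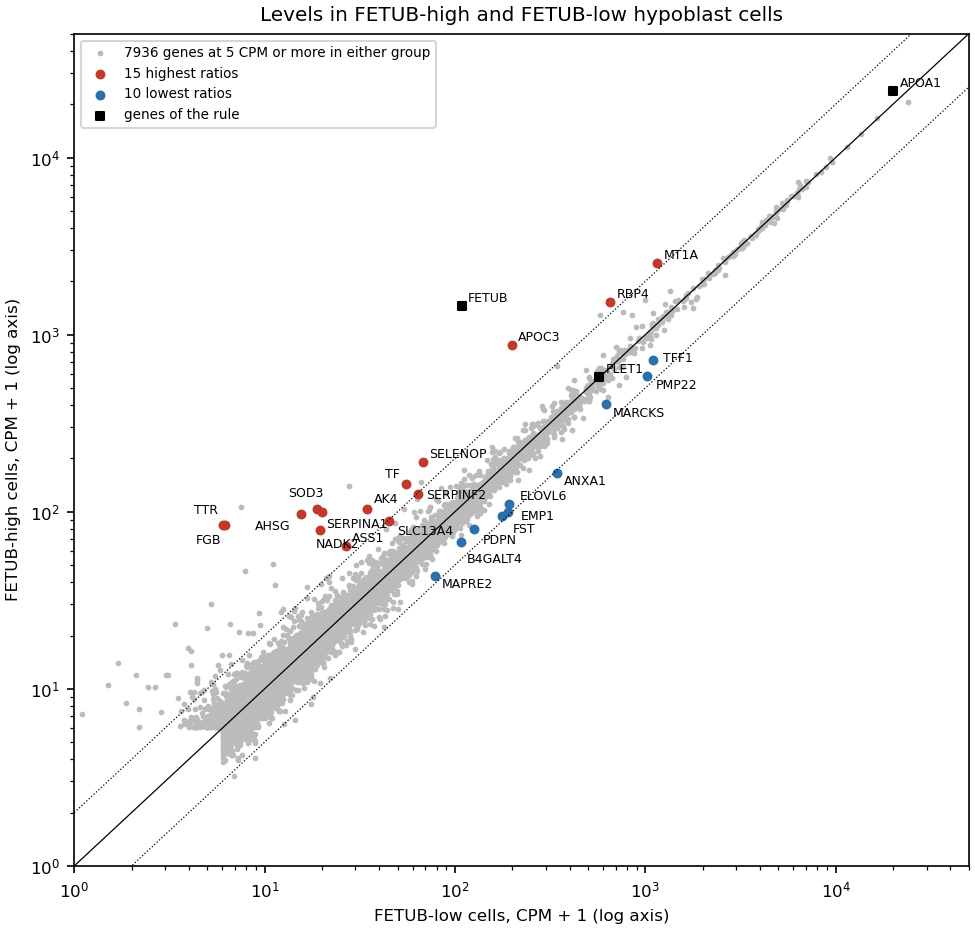
Level of each gene in FETUB-low (x) and FETUB-high cells (y), in CPM plus 1 on log axes, for genes at 5 CPM or more in either group. The solid line marks equal levels and the dotted lines 2-fold differences. TTR and FGB lie farthest above the line among the 15 highest ratios (red), and ANXA1 reaches the lower dotted line among the 10 lowest (blue).

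Genes of small-molecule carriers differed to unequal extents. RBP4, which encodes the plasma carrier of retinol, was at 1529 CPM (1503 to 1557) in FETUB-high and 654 CPM (643 to 665) in FETUB-low cells, a ratio of 2.34 (2.28 to 2.40). A FETUB-high cell held a median of 15 RBP4 UMIs, and 99.4% of them held at least 1, against 88.4% of FETUB-low cells. At 2000 UMIs per cell these shares were 86.7% and 59.2%. TTR, the gene of transthyretin, which carries thyroid hormone and binds RBP4, was at 83.5 and 5.03 CPM, a ratio of 16.6 (13.5 to 20.5). The iron carrier gene TF was at 143 and 54.1 CPM (ratio 2.63, 2.43 to 2.86). The RefSeq table lists 2 loci under the symbol TF, and how reads were shared between them was not tested.

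Lipoprotein genes were unequal. APOC3, which slows the clearance of triglyceride-rich particles, was at 875 and 198 CPM, a ratio of 4.42 (4.26 to 4.59). It lies on chromosome 9 at 44211171 to 44213538, next to the gate gene APOA1 (44216481 to 44218360), whose levels were 23650.4 and 20089.7 CPM. APOA4, the next gene in that row, reached only 5.93 and 3.09 CPM. APOB, the large structural protein of these particles, was at 22.2 and 2.40 CPM (ratio 9.25, 6.76 to 12.9), APOA2 at 1292 and 847 CPM, and APOE at 5222 and 4844 CPM.

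AHSG, the neighbour and relative of FETUB, was at 96.7 and 14.5 CPM, a ratio of 6.69 (5.86 to 7.65). The next neighbours on the other side were hardly detected: HRG had 2 counts in FETUB-high and 1 in FETUB-low cells, and KNG1 had 0 and 1. SERPINA1, which encodes the elastase inhibitor alpha-1 antitrypsin, was at 99.0 and 19.0 CPM (ratio 5.20, 4.61 to 5.87), and SERPINF2, the plasmin inhibitor gene, at 124 and 62.7 CPM. FGB, the fibrinogen beta chain gene, was at 82.8 and 5.22 CPM (ratio 15.9, 13.0 to 19.5). The cystatin C gene CST3 was nearly level, at 499 and 393 CPM.

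Over the list of plasma proteins and lipoproteins as a whole, 19 of 23 matched members had a higher level in FETUB-high cells, 3 (APOH, ITIH5 and VTN) a lower one and 1 (ALB) stood at 0 in both groups. Of the 23, 14 reached 5 CPM in either group, but APOA4 and APOB did so in FETUB-high cells alone, so the level filter fixed their direction. The other 12 reached it in both groups, were higher in FETUB-high cells and included 7 past 2-fold. Among 7933 genes at 5 CPM or more in either group, 44.9% were higher, 0.857% by 2-fold or more, and 0.063% were lower by that much. The median log2 ratio was 1.30 over the 14 and 0.68 with no minimum level, beside -0.02 over the 7933 genes. HAMP, the gene of the iron hormone hepcidin, and MTTP, which loads lipid onto APOB, stood at 195 and 166 CPM and at 53.6 and 46.4 CPM. APOE had the smallest ratio of the 14 members at 5 CPM or more in either group. The list overlaps with genes already known from these data to mark day 12 hypoblast, and it is given as a description.

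MT1A, a metallothionein gene, was at 2545 CPM (2510.3 to 2580.0) and 1157 CPM (1142 to 1171), a ratio of 2.20 (2.16 to 2.24). The related MT3 was at 27.7 and 13.5 CPM and MT1X at 1571 and 994 CPM. Metallothionein genes are near copies of each other, so the split of reads among them is uncertain. Of 8 measured genes for metallothioneins and zinc transport, 7 had higher levels in FETUB-high cells and 1, MT1A, passed 2-fold. Among all genes 44.9% were higher and 0.857% passed 2-fold, as given above. The zinc importer genes SLC39A5 and SLC39A8 were at 116 and 78.4 CPM and at 287 and 226 CPM, and SLC39A4 was at 40.2 and 46.7 CPM. SOD3, the extracellular superoxide dismutase gene, was at 102 and 17.9 CPM (ratio 5.73, 5.07 to 6.48). SELENOP, a selenium carrier gene, was at 189 and 66.6 CPM, below its 455 CPM in PLET1-high cells.

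The other 2 markers given for these cells stayed under 2-fold. SULF1, an enzyme that trims sulphate from heparan sulphate outside the cell, was at 103 CPM (96.1 to 110.2) and 52.9 CPM (49.9 to 56.0), a ratio of 1.95 (1.78 to 2.13). At 2000 UMIs per cell, 19.4% of FETUB-high and 9.05% of FETUB-low cells held a SULF1 UMI. AQP5, a water channel gene, was at 55.6 CPM (50.5 to 60.9) and 34.4 CPM (32.0 to 37.0), a ratio of 1.61 (1.43 to 1.82). SULF2 was at 31.4 and 27.2 CPM, EXT1, which builds the heparan sulphate chain, at 97.2 and 135 CPM, and AQP3 at 26.1 and 19.1 CPM.

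Among metabolic genes with high ratios, NADK2, the mitochondrial NAD kinase gene, was at 78.3 and 18.5 CPM (ratio 4.24, 3.73 to 4.81), and AK4, a mitochondrial adenylate kinase gene, at 103 and 33.7 CPM. ASS1, which makes argininosuccinate in arginine synthesis, was at 63.2 and 25.8 CPM. SLC13A4, a sulphate transporter gene, was at 88.2 and 44.0 CPM. ASS1 and SLC13A4 were also present in PLET1-high cells, at 49.2 and 120 CPM.

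The 10 genes with the lowest ratios were ANXA1, EMP1, FST, MAPRE2, PMP22, ELOVL6, B4GALT4, PDPN, MARCKS and TFF1. ANXA1, which encodes a phospholipid-binding annexin, was at 165 CPM (157 to 174) in FETUB-high and 344 CPM (336 to 352) in FETUB-low cells, 2.08-fold lower (1.96 to 2.20). EMP1 and PMP22, a pair of related membrane protein genes, were 1.91-fold and 1.76-fold lower, at 99.3 and 189 CPM and at 581 and 1021 CPM. FST, the gene of the activin-binding protein follistatin, was at 93.2 and 176 CPM, 1.88-fold lower (1.74 to 2.04). MAPRE2, a microtubule end protein gene, was at 42.5 and 77.7 CPM, and ELOVL6, a fatty acid elongase gene, at 109 and 191 CPM. The remaining genes ran from 66.5 and 106 CPM for B4GALT4 to 715 and 1092 CPM for TFF1, which was 1.53-fold lower.

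Beyond plasma proteins, the lists moved little. Counts of higher members in these lists stand beside 44.9% higher among all 7933 genes at 5 CPM or more. Of 13 measured hypoblast and endoderm regulators, 8 were higher and 5 lower, with a median log2 ratio of 0.02 and none past 2-fold. HNF4A, the nuclear receptor that drives many liver genes, was at 216 CPM (206 to 226) and 156 CPM (151 to 161), and FOXA3 at 22.7 and 16.3 CPM. FOXA2 was at 34.0 and 35.6 CPM. Basement membrane genes had 4 higher and 9 lower of 13 (median -0.04), with the laminin chain gene LAMB1 at 169 and 178 CPM. Endocytic uptake had 5 of 7 higher (median 0.17), with the megalin gene LRP2 at 289 and 232 CPM.

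Signals of the anterior hypoblast had 3 of 8 higher, beside 44.9% of all genes. Their median was -0.25, and 1 was higher and 1 lower by 2-fold or more. DKK1, a WNT antagonist, was at 121 and 137 CPM, and BMP4 at 15.3 and 21.8 CPM. CER1, the Cerberus gene of the anterior signalling centre, was the member higher by 2-fold or more, though it falls outside the naming rule. It reached 5 CPM in FETUB-high cells alone, so the level filter fixed its direction. Of its 52 counts in the gate, 50 came from 1 FETUB-high cell. Glycolysis (6 of 12 higher, median 0.01) and the secretory pathway (10 of 16, median 0.03) lay at the median of all genes, with the chaperone gene CANX at 423 and 507 CPM. Cholesterol synthesis and uptake had 11 of 18 higher (median 0.07).

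Cell cycle genes of G1 and S were higher in 1 of 11 (median -0.12), beside 44.9% of all genes, with PCNA at 111 and 131 CPM. Those of G2 and M were higher in 5 of 13 (median -0.06), with TOP2A at 73.0 and 65.6 CPM. Genes that dissociation induces were higher in 8 of 10 (median 0.10), with FOS at 1120.3 and 958 CPM, and their part in the results was not tested. None of the genes in these 3 lists passed 2-fold.

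**Figure D3:**
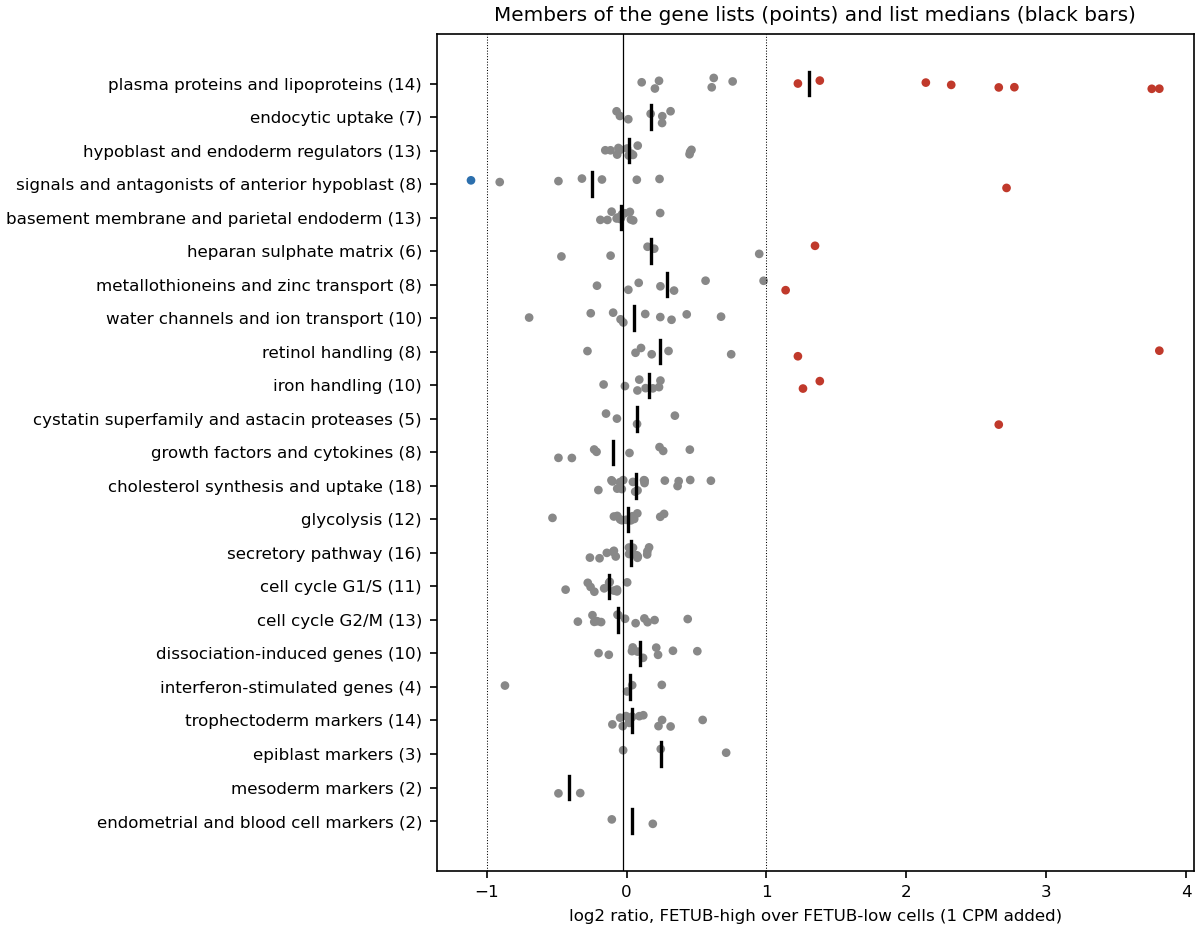
Log2 ratio of FETUB-high over FETUB-low cells for each measured member (5 CPM or more) of 23 gene lists, with list medians as black bars, the median of all genes as a solid line and 2-fold as dotted lines. The plasma protein list has its median at 1.30, and the other medians lie between -0.41 and 0.29.

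FETUB-high cells were not uniform. Ordered by their FETUB level and parted into a low, a middle and a high class (231, 229 and 232 cells), they differed in plasma protein genes. TTR was at 2.03, 16.8 and 309 CPM in these classes, FGB at 5.22, 22.1 and 294 CPM, AHSG at 22.3, 46.5 and 289 CPM, and APOC3 at 283, 514 and 2355 CPM. RBP4 stood at 1108, 1381 and 2441 CPM and TF at 90.1, 130 and 249 CPM. MT1A had no such order, at 2420.4, 2689 and 2571 CPM, nor had SULF1, at 93.0, 113 and 107 CPM. AQP5 was highest in the middle class (49.3, 72.7 and 44.0 CPM). ANXA1, PMP22 and FST were lower with each step up in FETUB, ANXA1 at 211, 149 and 108 CPM. Median depth was lower with each step too, at 13904, 11021 and 8004.5 UMIs: by the rule, a cell with few UMIs needs a higher level to reach 5. The part of depth in this order was not tested.

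**Figure D4:**
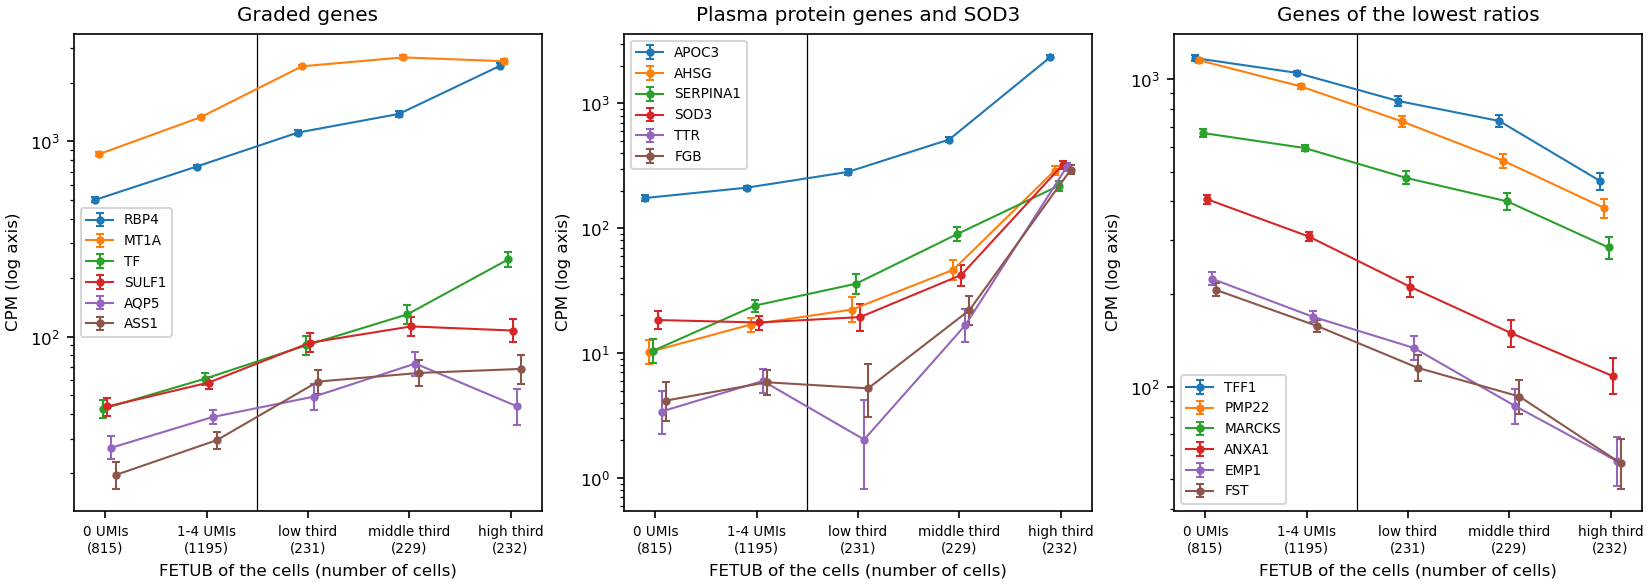
Level in CPM (log axes) of 18 genes in gate cells with 0 and 1 to 4 FETUB UMIs and in the low, middle and high class of FETUB-high cells by FETUB level (numbers of cells in brackets), with exact Poisson intervals as bars. MT1A lies between 2420.4 and 2689 CPM in the 3 FETUB-high classes, while TTR and FGB are at 2.03 and 5.22 CPM in the low class and at 309 and 294 CPM in the high class.

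TTR and FGB were held by a minority of cells. Only 12.1% of FETUB-high cells had a TTR UMI, and 97.8% of all their TTR UMIs lay in the 10% of cells with the most. For FGB that share was 90.3%, for AHSG 78.8%, for APOC3 58.7% and for RBP4 27.5%. Of TTR, FGB, AHSG and SERPINA1, 278 FETUB-high cells (40.2%) had no UMI of any and 49 (7.08%) had all 4, against 1460 (72.6%) and 3 (0.149%) of FETUB-low cells. Over the 692 cells the Spearman correlation of the TTR level with the FGB level was 0.75. That of FETUB was 0.38 with TTR, 0.45 with RBP4, 0.08 with MT1A and -0.01 with SULF1. These cells share 1 library and differ in depth.

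A set of 79 FETUB-high cells (11.4%, 9.14 to 14.02%) had 3 or more UMIs of TTR or of FGB, 56 of them of both. Among FETUB-low cells 12 of 2010 did (0.597%). The 79 cells were picked after these values were seen, so TTR and FGB describe the pick. They held 2978 of the FETUB UMIs of FETUB-high cells (25.3%), at 4685 CPM against 1178 CPM in the other 613. They were shallower (median 7485 against 11688 UMIs) and had more mitochondrial UMIs (4.88% against 3.30%), and the part of these in what follows was not tested. When the gate cells were clustered without FETUB, APOA1 and PLET1, 65 of the 79 fell into cluster 2. Of the 122 cells of that cluster, 71 (58.2%) were FETUB-high. TTR and FGB were not left out of the clustering, so it was not independent of the pick.

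Beside TTR and FGB, these cells held higher levels of further plasma protein genes. Of 2657 genes at 50 CPM or more in either set, 10.4% were 2-fold or more higher in the 79 cells and 7.49% lower. The level filter fixed the direction of genes that reached 50 CPM in only a single set. Among them were AHSG, APOB, HPX, PLG, PHGDH, PSAT1, SLC22A7, SLC34A2, DIO1, STMN2 and EFNB2. APOC3 was at 6354 CPM (6159 to 6553) in the 79 and 408 CPM in the other 613 FETUB-high cells, a ratio of 15.6 (14.8 to 16.3). AHSG was at 760 CPM (694 to 831) and 40.2 CPM, APOB at 222 and 5.23 CPM, SERPINA1 at 507 and 64.3 CPM and the hemopexin gene HPX at 110 and 2.55 CPM. The plasminogen gene PLG was at 53.5 and 0.268 CPM, from 2 counts in the other cells. FGG, the fibrinogen gamma chain gene in the same gene row as FGB on chromosome 8, was at 28.3 CPM from 18 counts and 0.402 CPM from 3. HAMP went the other way, at 81.8 and 205 CPM.

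PHGDH and PSAT1, which encode enzymes of serine synthesis, were at 516 and 5.49 CPM and at 511 and 10.2 CPM. Cholesterol synthesis and uptake genes were higher in the 79 cells in 18 of 18 cases, 16 of them by 2-fold or more, where 12.6% of 8315 genes at 5 CPM or more passed 2-fold upwards. Their median log2 ratio was 2.43, beside 0.17 over all those genes. HMGCS1, which starts the pathway, was at 393 CPM (346 to 445) and 35.6 CPM and the sterol sensor gene INSIG1 at 101 and 6.83 CPM. SREBF2 had the smallest difference named here, at 62.9 and 51.3 CPM. SLC22A7, an organic anion transporter gene, was at 156 and 0.804 CPM, the phosphate transporter gene SLC34A2 at 216 and 5.63 CPM and the deiodinase gene DIO1 at 164 and 3.48 CPM.

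Most genes of the basement membrane list were lower there. Of 13 basement membrane genes 12 were lower, 7 by 2-fold or more, where 9.27% of all genes at 5 CPM or more were, with a median log2 ratio of -1.25. LAMA1 was at 115 CPM against 438 CPM, NID2 at 78.7 against 378 CPM and COL4A1 at 318 against 814 CPM. Growth factor and cytokine genes went both ways: 5 of 9 were higher, 3 of them by 2-fold or more, and 3 were lower by that much. Among all genes at 5 CPM or more in either set, 4985 of 8315 were higher in the 79 cells. KITLG, the gene of the KIT ligand, was at 59.8 against 4.82 CPM and BMP4 at 1.57 CPM from 1 count against 16.5 CPM. KITLG and GDF15, both higher by 2-fold or more, reached 5 CPM in the 79 cells alone. BMP4 reached it in the other FETUB-high cells alone, so the level filter fixed the direction of all these genes. PDGFRA, a receptor gene used as a hypoblast marker, was at 15.7 CPM (7.54 to 28.9) against 132 CPM, SOX17 at 67.6 against 226 CPM and DKK1 at 14.2 against 130 CPM. GATA6 and HNF4A were close, at 77.1 against 93.0 CPM and 269 against 211 CPM. Of 14 hypoblast and endoderm regulators measured, 5 were higher, 3 of them by 2-fold or more. The other 9 were lower, 3 of them by that much. FOXA1 was higher, at 56.6 against 24.7 CPM, and so was CITED1, at 28.3 against 8.04 CPM. EOMES, also higher, reached 5 CPM in the 79 cells alone, so the level filter fixed its direction. The stathmin gene STMN2 was at 1.57 CPM from 1 count against 63.6 CPM, the ephrin gene EFNB2 at 3.15 against 56.7 CPM and the adhesion gene PECAM1 at 56.6 against 335 CPM.

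Of the 5 markers given for the FETUB-high cells, FETUB and RBP4 were higher in the 79 cells and MT1A, SULF1 and AQP5 lower. MT1A was at 2127 CPM in the 79 and 2581 CPM in the other 613 cells, SULF1 at 62.9 and 106 CPM, and AQP5 at 14.2 and 59.1 CPM, while RBP4 was at 3730 and 1342 CPM. ASS1, which is no such marker, was at 9.44 and 67.8 CPM. Trophectoderm markers summed to 9952 and 6849 CPM, with KRT18 at 3178 and 1339 CPM and PLET1 at 692 and 564 CPM. Their part was not tested.

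**Figure D5:**
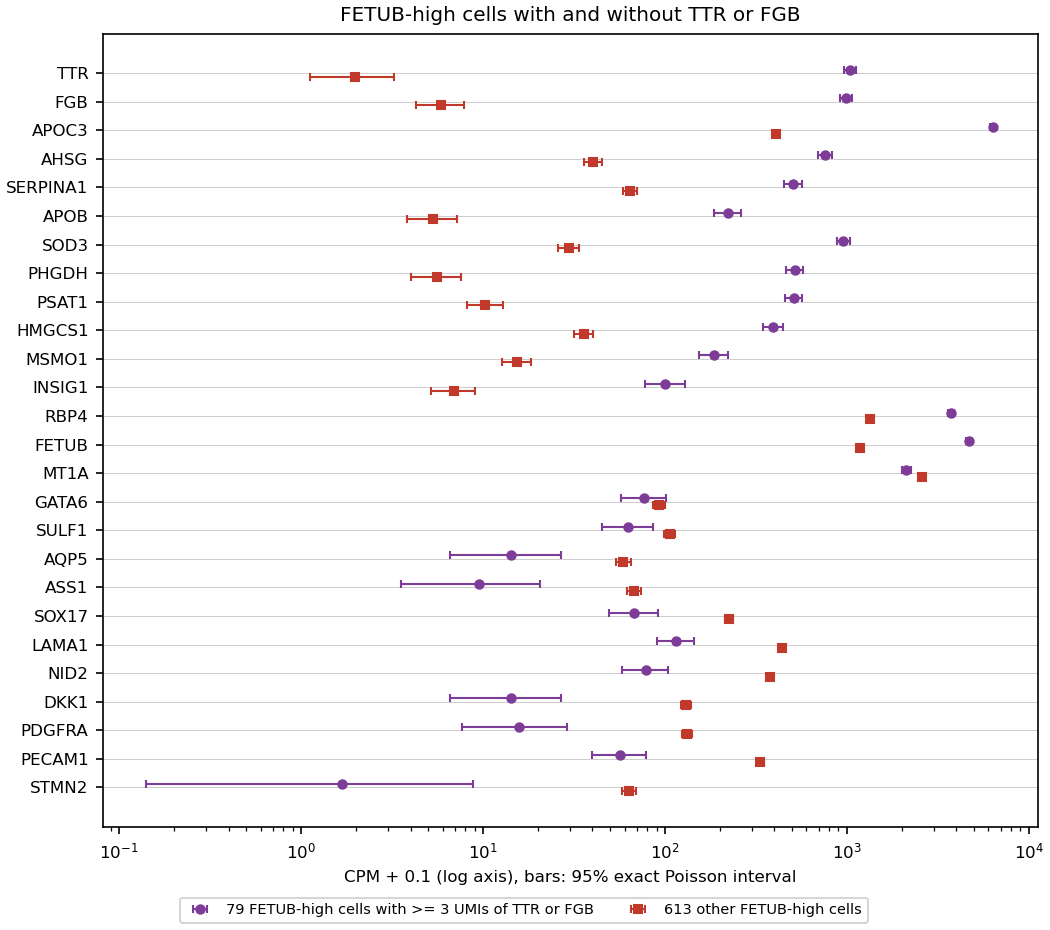
Level of 26 genes (CPM plus 0.1, log axis, exact Poisson intervals) in the 79 FETUB-high cells with 3 or more UMIs of TTR or FGB (purple circles) and in the other 613 (red squares). APOC3, AHSG, PHGDH and HMGCS1 are among the genes higher in the 79, GATA6 and MT1A are close, and LAMA1, NID2 and DKK1 are among those lower.

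Without those cells, the difference between FETUB-high and FETUB-low cells was smaller and differently made. With cells of 3 or more TTR or FGB UMIs left out of both groups, 10 genes were 2-fold higher and 0 lower, in place of 17 and 1. These 10 were RBP4, MT1A, SERPINA1, APOC3, NADK2, AK4, TF, ASS1 and 2 genes with no symbol. SERPINA1, NADK2, AK4 and ASS1 reached 50 CPM in FETUB-high cells alone, so the level filter fixed their direction. RBP4 was then at 1342 and 639 CPM (ratio 2.10, 2.05 to 2.16), MT1A at 2581 and 1154 CPM (2.24, 2.19 to 2.28), SULF1 at 106 and 53.1 CPM and SERPINA1 at 64.3 and 15.6 CPM (4.12, 3.58 to 4.75). AHSG was at 40.2 and 14.3 CPM, SOD3 at 29.5 and 15.5 CPM and SELENOP at 91.0 and 61.0 CPM. TTR was at 1.88 and 2.93 CPM, from 14 and 63 counts. Of the 23 plasma protein genes matched, 17 were then higher in FETUB-high cells and 5 lower, TTR among them. Those at 5 CPM or more in both groups were 10, all higher, 5 by 2-fold or more. The median over genes at that level in either group was 0.95, and 0.53 with the rich cells left out of FETUB-high cells only. The 0.95 is the value of FGB itself, on which the rich cells were picked. APOA4, APOB and FGB reached that level in FETUB-high cells alone, so the level filter fixed their direction. Of the cholesterol genes 2 of 18 were then higher (median -0.30).

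FETUB-high cells lay in all 7 clusters of the gate, at 9.33 to 58.2% of a cluster. Cluster 4 held 342 of them (46.5% of its 736 cells, 42.8 to 50.1%) and cluster 5 held 155 (26.1% of 594), while cluster 3, the largest, held 77 (9.53% of 808). Clusters 0 and 1, with 18 and 9, were shallow (medians of 3501 and 3833 UMIs) and had medians of 0.256% and 12.5% mitochondrial UMIs. The 8 genes most alike to FETUB over the 2702 gate cells thinned to 2000 UMIs were RBP4 (Spearman 0.36), APOC3 (0.29), MT1A (0.25), a gene with no symbol (0.23), TF (0.20), APOA1 (0.18), MT1X (0.17) and SELENOP (0.17). The lowest of 2071 genes were PMP22 (-0.26) and TMSB10 (-0.25). All these cells come from 1 library, and the counts are sparse. Only the correlations used cells thinned to 1 depth, and the clusters did not.

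The other libraries hardly held such cells. Under the same rule the day 9 embryo had 1 cell and each endometrium 0. In the endometrium no FETUB UMI was seen in 5993 cells of day 9 and 5240 of day 12, which allows a share of up to 0.0501% and 0.0573% of cells with a UMI (3 counts). These cells were shallower, with medians of 3025 and 2954 UMIs against 9990 in the day 12 embryo, and only 37 and 81 of them lay in the gate, so 5 UMIs are harder to reach there. The day 9 gate is not the same population: it took 91.8% of the cells past the filters, 6957 of 7581, and day and library cannot be told apart. There FETUB was at 0.805 CPM (0.620 to 1.03), TTR at 0.0251 CPM from 2 counts, TF at 0.126 CPM and AQP5 at 0.0251 CPM, and SERPINA1 had 0 counts. AHSG was at 2.09 CPM, SULF1 at 17.8 CPM and APOC3 at 254 CPM, against 382 CPM for APOC3 in the day 12 gate.

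Barcodes of the 692 cells were sought in the other libraries. Of cells past the filters, 5 in the embryo of day 9 carried one of them, as did 4 endometrial cells of day 9 and 7 of day 12. The unfiltered day 9 list of 657829 barcodes held 628 of them (90.8%). Such shares were not counted for the other day 12 cells, so these counts have no base to be read against.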

How the data were processed

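Single-cell libraries of pig embryos and endometrium were sequenced, 1 library per tissue and day. The deposited values are whole-number UMI counts per gene and barcode, not normalized. Cell Ranger 6.1.2 and the build Sscrofa11.1 are named in the submitters' processing notes, and Cell Ranger 4 in the day 9 embryo's file header. The cell calling step is not stated there. Of 21280 genes, 14811 carried a symbol in the deposited files and 694 more were named from a reference table.

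Counts of a group of cells were summed and scaled to CPM by the UMI total of the group. Log2 ratios had 1 CPM added. Intervals are 95%: exact Poisson for levels, conditional binomial for ratios and Clopper-Pearson for shares. They cover counting error only. Ratios and intervals were checked on simulated counts with known folds. The simulated counts were Poisson draws, as the intervals assume, so the check does not cover spread between cells. No doublet was removed. Scrublet as run in scanpy 1.11.5 marked 84 of 6169 day 12 embryo cells, 3 of them FETUB-high. Cells were thinned to 2000 UMIs for shares of cells and for correlations. Clusters of the gate (scanpy, 2000 variable genes, 30 components, 15 neighbours, resolution 0.6) were made without FETUB, APOA1 and PLET1.

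Genes named are the 5 markers, the 15 highest and 10 lowest ratios among genes with a symbol at 50 CPM or more (mitochondrial, ribosomal protein, haemoglobin and rule genes left out), up to 6 members of each of 23 lists at 20 CPM or more, and the 8 genes best correlated with FETUB. Genes named for the cells rich in TTR or FGB, and any others, were chosen after their values were seen. The members, lists and alternatives were chosen with earlier results of these data known. No test across conditions was possible with single libraries.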

Additional observations from a re-analysis of the deposited data

How the results depend on the processing

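Over 20 alternatives, the number of FETUB-high cells (692) became 384 at 10 FETUB UMIs, 1084 at 200 CPM with 2 UMIs and 302 with PLET1 under 500 CPM. The count of genes higher by 2-fold (17) became 28 at 10 FETUB UMIs, 29 and 11 with level filters of 20 and 100 CPM and 109 with none, and 10 without the TTR- or FGB-rich cells, whether left out of FETUB-high cells or of both groups (an alternative chosen after seeing the data). The count of genes lower by 2-fold (1) became 0 at 3 FETUB UMIs, at 200 CPM, with PLET1 under 500 CPM and without the rich cells in either way. It became 4 at 10 FETUB UMIs, 3 after thinning, 4 against cells with 0 FETUB UMIs, 2 in a shared range of depth and 18 with no level filter. The median of the plasma protein list (1.30) became 1.61 against cells with 0 FETUB UMIs and 0.68 with no minimum level. It became 0.53 without the rich FETUB-high cells and 0.95, the value of FGB itself, without rich cells in both groups. Of 27 named genes, 26 kept their sign throughout. TTR turned, from a log2 ratio of 3.81 to -1.07 without the rich FETUB-high cells and -0.45 without rich cells in both groups, since those cells were chosen on it. Median-of-ratios scaling had a shift of -0.04 (log2) against CPM. No paired analysis was possible because each group is 1 library.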
